A study of Mus musculus with 7 samples.

Results

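The EGF family ligands Egf, Btc, Ereg, Hbegf, Tgfa and Nrg1 and the ErbB receptors Egfr, Erbb2, Erbb3 and Erbb4 were read in mammary glands of PRA transgenic and wild-type mice. The 10 genes, 6 ligands and 4 receptors, were taken as all non-control probes of the array that carry one of these gene names, which gave 25 of 56605 probes and 10 of 37074 names on the array. All animals were nulliparous adult FVB mice of 20 to 25 weeks, at diestrus, and each of the 7 gave RNA of a single abdominal gland from which lymph nodes had been removed. There were 3 wild-type animals and 4 PRA transgenics. A PRA transgenic carries an extra gene for the A form of the progesterone receptor with GAL-4 binding sites (UAS-PR-A), and a second transgene, CMV-GAL-4, that switches it on through a CMV promoter, which is not particular to mammary epithelium. Gland RNA was labelled with Cy5 and hybridised on 2-colour Agilent arrays against Universal Mouse Reference RNA, a Cy3-labelled pool from 11 mouse cell lines that was the same on every array, with no dye swap. A value below is log2(Cy5/Cy3), the log2 ratio of gland to reference, unless Cy5 alone is named.

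EGF family ligands are made as membrane-anchored precursors, and ADAM proteases, Adam17 among them, release the active factor. Egf, Tgfa, Hbegf, Btc, Ereg and Areg bind Egfr, some of them also Erbb4, and neuregulins bind Erbb3 and Erbb4. Bound receptors pair with each other or with Erbb2, which has no known ligand of its own, and Erbb3 has little kinase activity and signals through its partner. In the mammary gland, Egfr in the stroma takes part in duct growth, and Erbb4 is known for its part in alveolar differentiation and milk production.

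The design of the probes decided which transcripts could be read, and the pair for Erbb4 is shown because its probes read alternative transcripts and 1 of them was not detected. Each probe is printed 5′ to 3′ as given in the array files, in the sense of the messenger RNA. The capitals mark the 38 bases of the first and the 36 bases of the second that lie 5′ of their shared run of 22 bases. The shared run is in lower case, followed in the second probe by 2 further bases.
Erbb4 A_51_P283698: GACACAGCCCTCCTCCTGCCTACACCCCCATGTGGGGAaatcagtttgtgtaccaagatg
Erbb4 A_52_P256090: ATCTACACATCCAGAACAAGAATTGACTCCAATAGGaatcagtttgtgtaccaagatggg
Both match coding exons on the minus strand of chromosome 1, in mm9 as the array files give it. The first spans 1229 bases of genome (chr1:68089291-68090519) and includes the cytoplasmic exon of the form known as CYT-1, which carries a binding site for PI 3-kinase. The second spans 28839 bases (chr1:68089289-68118127) and joins the exons on either side of it, as in the form known as CYT-2. The CYT-1 probe was well above background in Cy5 and in Cy3 on all 7 arrays, whereas the CYT-2 probe was well above background on 0 arrays in either channel. A probe that is not well above background gives only a bound, and how well each probe binds its transcript is not known, so no share of the 2 forms can be given.

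For Nrg1, 3 coding probes are shown because they read different portions of the protein. They read the immunoglobulin-like domain, the EGF-like domain that binds the receptors, and the end of the cytoplasmic tail, all on the minus strand of chromosome 8 (mm9, chr8:33068986-33069045, chr8:32959791-32959850 and chr8:32928500-32928559).
Nrg1 immunoglobulin-like domain, A_55_P2874801: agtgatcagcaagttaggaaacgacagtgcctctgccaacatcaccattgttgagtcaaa
Nrg1 EGF-like domain, A_52_P369769: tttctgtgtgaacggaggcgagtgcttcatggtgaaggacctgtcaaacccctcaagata
Nrg1 cytoplasmic end, A_55_P1985433: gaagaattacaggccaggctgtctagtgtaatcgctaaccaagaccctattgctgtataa

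Of the 25 probes, 15 passed the filter, which asked for a Cy5 signal well above background on every array of 1 genotype or both, and 10 did not. In Cy5, 13 probes were well above background on all 7 arrays and 3 on none. Ereg and Tgfa had no probe that passed, so 8 of the 10 genes were tested, each by the passing probe that was brightest in Cy5. Over the whole array, 62.7 to 66.2% of probes were well above background in Cy5 on wild-type arrays and 56.6 to 60.2% on PRA transgenic arrays, and in Cy3, which held the same RNA throughout, 53.2 to 54.0% and 47.2 to 50.6%. All arrays lay on 1 slide, wild-type in its first row and PRA transgenics in its second, so row and genotype cannot be told apart. Markers of luminal (16 of 16) and basal epithelium (10 of 10) passed the filter, as did 11 of 12 skeletal muscle markers, whose mean log2 ratio was 2.07, -0.26 and 3.12 in wild-type 1, 2 and 3 and -0.09, -0.22, -0.21 and 3.02 in PRA transgenic 1 to 4. T cell markers averaged 2.42 in wild-type 1 and at most 0.68 elsewhere.

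**Figure D1:**
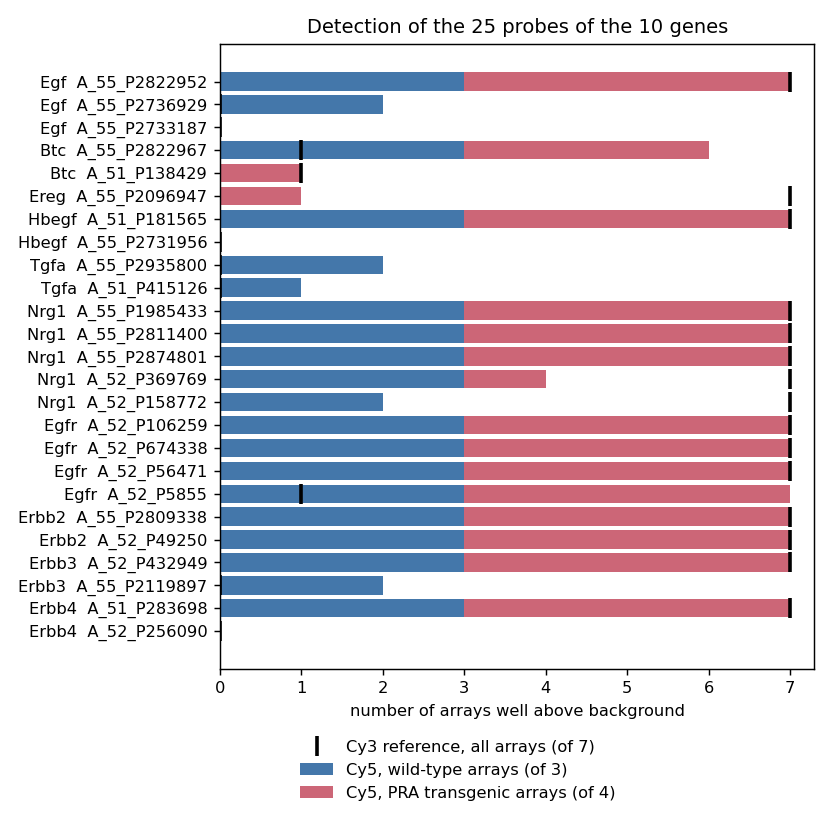
Bars give the number of arrays on which each of the 25 probes was well above background in Cy5 (blue, of 3 wild-type; red, of 4 PRA transgenic), and black ticks the number in the Cy3 reference (of 7). The second Erbb4 probe is at 0 in both channels, both Tgfa probes are at 0 on PRA transgenic arrays, and Ereg is at 7 in the reference and at 1 in the gland.

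With limma and Benjamini-Hochberg adjustment over all 34284 probes that passed, 0 of the 8 genes had an adjusted p below 0.05. Of all probes 4 had one, or 0.0117%. At an unadjusted P below 0.05, limma gave 1 of the 8 genes, Egf. The unpaired test named in the study's methods gave 2 on the same values, Egf and Erbb4, and 0 after adjustment. The share of all genes at this P alone was not counted, so neither count is read as a result. With the study's looser limits, P below 0.05 and a change of at least 1.5-fold, 1 gene was lower (Egf) and 0 higher. Among the 22499 named genes tested, these limits gave 2.54% lower and 1.52% higher. Here any gene name on the array counts, clone and transcript identifiers included. The median log2 fold change, PRA transgenic over wild-type, was -0.16 over the 8 genes, with 2 positive (Erbb4, and Btc, whose reference signal was dim) and 6 negative, and 0.01 over all genes.

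**Figure D2:**
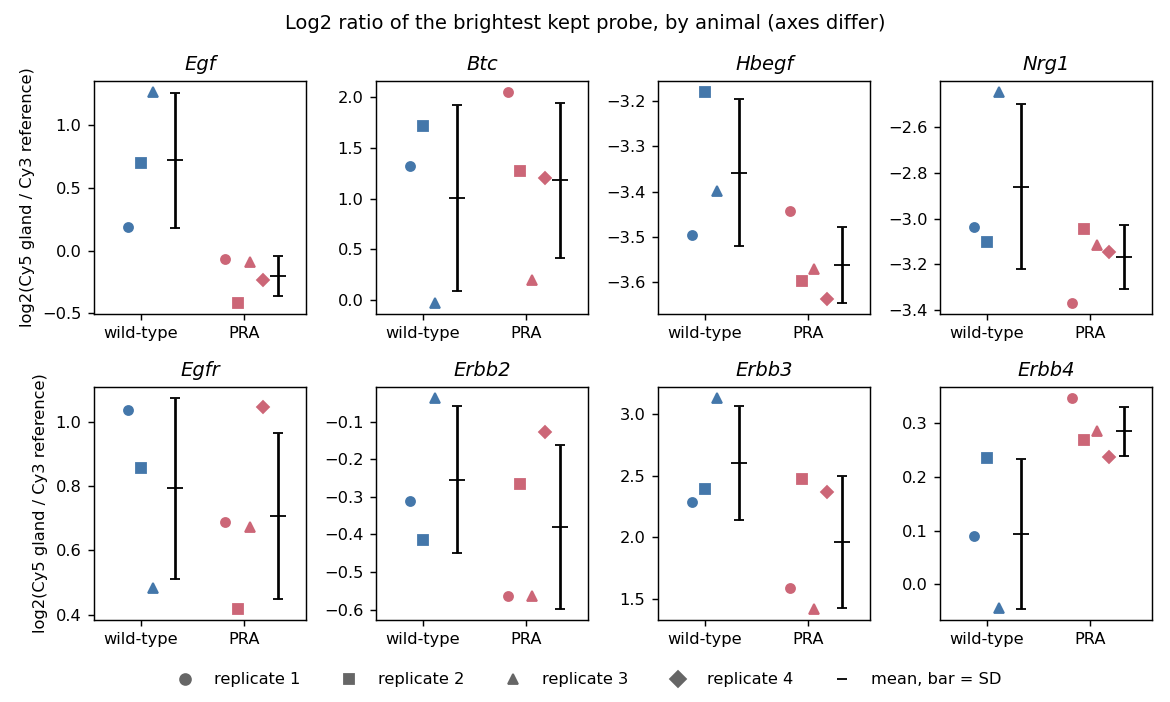
Log2 ratio of gland (Cy5) to reference (Cy3) for the 8 tested genes in each animal, 3 wild-type (blue) and 4 PRA transgenic (red), with the symbol for the replicate number and the mean and SD in black. Each panel has its own axis. All 4 PRA transgenics lie below all wild-type animals for Egf and above them for Erbb4, and the genotypes overlap for the other 6.

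Egf, which encodes epidermal growth factor, gave the largest difference of the 8 in log2 ratio, though not with normexp background correction and loess or in Cy5 alone. Its log2 ratio was 0.19, 0.70 and 1.27 in wild-type 1, 2 and 3 and -0.07, -0.42, -0.09 and -0.23 in PRA transgenic 1 to 4. Every PRA transgenic was below every wild-type animal, and the wild-type animals spread widely, with replicate 3 the highest. The means were 0.72 ± 0.54 (SD, n = 3) and -0.20 ± 0.16 (SD, n = 4). The difference was a log2 fold change of -0.92 (SE 0.25), 1.9-fold lower, with an unadjusted limma P of 0.00756 and an adjusted p of 0.41, so Egf did not pass the test over the array. Its 95% interval ran from -1.51 to -0.33 on the log2 scale. In all, 4.5% of named genes had all PRA transgenics below all wild-type animals.

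The Egf difference lay in the gland channel. In Cy5 alone, as log2 signal relative to the 75th percentile of each array, Egf was -2.31, -1.96 and -1.54 in wild-type and -2.60, -2.93, -2.92 and -2.70 in PRA transgenics, again without overlap, whereas Cy3 means were -2.65 and -2.57 and overlapped. The Cy5 difference was -0.85 on the log2 scale (SE 0.20), with an adjusted p of 0.362. With normexp background correction and loess the log2 fold change was -0.49 (adjusted p = 0.527), under 1.5-fold. The summed luminal marker signal, in multiples of the array's 75th percentile, was 422, 296 and 684 in wild-type and 311, 563, 271 and 392 in PRA transgenics. Muscle markers were high in wild-type 1 and 3 and PRA transgenic 4. By summed signal, wild-type 3, the highest for Egf, was the highest for both lists, while wild-type 2, the next for Egf, was low for both. By mean log2 ratio, luminal markers were highest in wild-type 1 (3.99), with 3.91 in PRA transgenic 2 and 3.90 in wild-type 3. The part of these markers in the Egf difference was not tested. In a whole gland, fewer cells of a type and less RNA per cell cannot be told apart.

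The probe that read Egf lies on the minus strand of chromosome 3 (mm9, chr3:129380577-129380636) in the RefSeq transcript of the gene. The other Egf probes, designed on other transcripts, were dim. One was well above background in Cy5 in 2 wild-type and 0 PRA transgenic animals, and the other in 0 animals. The first allowed no bound above 1-fold, since the lowest measurable signal on PRA transgenic arrays exceeded its wild-type mean.

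Btc, which encodes betacellulin, was lower in Cy5 alone in every PRA transgenic than in every wild-type animal, while its ratio gave no measured difference. The reference channel of its probe was well above background on 1 of 7 arrays, so the ratios on the other 6 are set against a signal not well above background and are not measured levels. The log2 ratio as computed was 1.32, 1.72 and -0.03 in wild-type and 2.05, 1.27, 0.20 and 1.20 in PRA transgenics. These ranges overlapped almost fully, and the fitted log2 fold change, from which no direction can be read, was 0.18 (SE 0.54), with an adjusted limma p of 0.957 and a 95% interval from -1.09 to 1.44. In Cy5 alone, Btc was -2.62, -2.33 and -1.81 in wild-type and -3.22, -3.43, -3.76 and -3.34 in PRA transgenics. That difference was -1.18 on the log2 scale (SE 0.22), with an unadjusted limma P of 0.00086 and an adjusted p of 0.302. The probe passed the filter only through the wild-type arrays, the group in which its Cy5 signal is the higher, so this test is not independent of the filter. In Cy5 alone 4.72% of named genes had all PRA transgenics below all wild-type animals, and 2.01% were lower at P below 0.05 and 1.5-fold.

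The reference signal of the Btc probe was -3.93, -4.04 and -1.77 on wild-type arrays and -5.25, -4.69, -3.94 and -4.51 on PRA transgenic arrays, means of -3.25 and -4.60, although this channel held the same RNA on each array. The Cy5 signal of the probe was well above background on 3 of 3 wild-type arrays and 3 of 4 PRA transgenic arrays. The part of the lower Cy3 signal in the Cy5 difference was not tested. A second Btc probe was well above background in Cy5 on 1 array, a PRA transgenic.

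**Figure D3:**
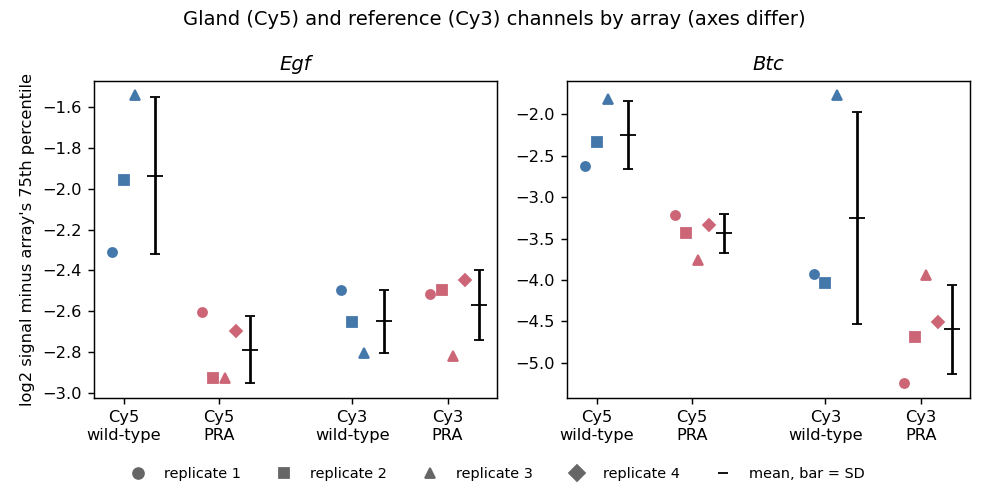
Log2 signal minus the array's 75th percentile in the gland channel (Cy5) and the reference channel (Cy3) for Egf and Btc, by array, with mean and SD in black; axes differ. For both genes Cy5 is lower on all 4 PRA transgenic arrays than on all 3 wild-type arrays. Cy3 means are close for Egf, -2.65 and -2.57, and differ for Btc, -3.25 and -4.60.

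The ligand genes Hbegf and, at its cytoplasmic-end probe, Nrg1 were far below the reference in every gland. Hbegf, which encodes heparin-binding EGF-like growth factor, had log2 ratios of -3.50, -3.18 and -3.40 in wild-type and -3.44, -3.60, -3.57 and -3.64 in PRA transgenics, a mean 11.1-fold below the reference. The 3 lowest animals were PRA transgenics, but PRA transgenic 1 lay within the wild-type range. The log2 fold change was -0.20 (SE 0.12, adjusted p = 0.683), with a 95% interval from -0.50 to 0.09.

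Nrg1, which encodes neuregulin 1, had log2 ratios at its cytoplasmic-end probe of -3.04, -3.10 and -2.45 in wild-type and -3.37, -3.05, -3.11 and -3.14 in PRA transgenics. Wild-type 3 stood above the other 6 animals, which lay between -3.37 and -3.04. The log2 fold change was -0.31 (SE 0.19, adjusted p = 0.683), and without wild-type replicate 3 it was -0.10. The probe of the immunoglobulin-like domain gave -1.997, -2.26 and -1.82 against -2.41, -2.42, -2.20 and -2.49, a log2 fold change of -0.35 (SE 0.14, adjusted p = 0.538), with PRA transgenic 3 just inside the wild-type range. The probe of the EGF-like domain gave -4.36, -4.49 and -3.52 against -4.88, -4.16, -3.57 and -3.46, a log2 fold change of 0.11 whose 95% interval, -0.83 to 1.04, holds both other values. That probe was well above background in Cy5 on 3 wild-type arrays and 1 PRA transgenic array, so no direction can be read from it. The fourth passing probe was designed on the same transcript as the probe of the immunoglobulin-like domain, yet it was near the reference. Its log2 ratios were -0.51, -0.10 and -0.52 in wild-type and -0.26, -0.40, -0.28 and 0.07 in PRA transgenics, a log2 fold change of 0.16. The fifth did not pass.

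Ereg and Tgfa could not be compared between the genotypes. Ereg, which encodes epiregulin, was well above background in the reference on all 7 arrays and in the gland on 1, PRA transgenic 1. Its log2 ratios as computed were -7.02, -8.44 and -7.49 in wild-type and -3.95, -5.61, -7.38 and -7.79 in PRA transgenics, of which only the -3.95 is a measured level. The others rest on gland signals not well above background and are not measured levels. The 2 probes of Tgfa, which encodes transforming growth factor alpha, were well above background in Cy5 on 2 and on 1 wild-type arrays, on 0 PRA transgenic arrays and on 0 arrays in Cy3.

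In the main limma fit of the log2 ratios, the receptor genes had smaller differences than Egf. For Erbb3 this order was not stable. With normexp and loess Erbb3 was at -0.68 and Egf at -0.49, and in Cy5 alone they were at -0.80 and -0.85. Egfr had log2 ratios of 1.04, 0.86 and 0.48 in wild-type and 0.69, 0.42, 0.67 and 1.05 in PRA transgenics, and the groups shared the same range. The log2 fold change was -0.09 (SE 0.20, adjusted p = 0.939), with a 95% interval from -0.55 to 0.38, and it was 0.06 in Cy5 alone. The 4 passing Egfr probes ran from -0.13 to 0.12 in log2 fold change, each with an interval that spans 0, the -0.13 being of a probe whose reference signal was well above background on 1 array.

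Erbb2, the receptor partner without a ligand, had log2 ratios of -0.31, -0.41 and -0.04 in wild-type and -0.56, -0.27, -0.56 and -0.13 in PRA transgenics. The genotypes overlapped, with PRA transgenic 1 and 3 the lowest and wild-type 3 the highest. The log2 fold change was -0.13 (SE 0.17, adjusted p = 0.871), with a 95% interval from -0.52 to 0.26, and the second probe gave -0.04.

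Erbb3, the neuregulin receptor, was above the reference in all glands, a mean of 4.71-fold, and varied most among the receptors. Its log2 ratio was 2.29, 2.39 and 3.13 in wild-type and 1.59, 2.47, 1.42 and 2.36 in PRA transgenics. PRA transgenic 1 and 3 were the lowest and wild-type 3 the highest, but PRA transgenic 2 and 4 lay inside the wild-type range. The log2 fold change was -0.64 (SE 0.34, adjusted p = 0.63), with a 95% interval from -1.43 to 0.15, and without wild-type replicate 3 it was -0.38. The summed luminal marker signal given above was also the highest in wild-type 3 (684) and the lowest in PRA transgenic 3 (271). It was low as well in wild-type 2 (296), where Erbb3 was 2.39. By mean log2 ratio, luminal markers were highest in wild-type 1 (3.99), and PRA transgenic 3 and wild-type 2 were both at 3.49. The part of luminal markers in the Erbb3 values was not tested. The second Erbb3 probe, in the RefSeq transcript of the gene, was well above background in Cy5 on 2 wild-type arrays and 0 PRA transgenic arrays. In Cy3 it was so on 0 arrays. This second probe allowed no bound above 1-fold, since the lowest measurable signal on PRA transgenic arrays exceeded its wild-type mean. The probe that gave the values above was designed on another transcript, so the level over the reference rests on that probe alone.

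Erbb4, read by the CYT-1 probe printed above, was the only receptor gene whose genotypes did not overlap. Its log2 ratio was 0.09, 0.24 and -0.04 in wild-type and 0.35, 0.27, 0.29 and 0.24 in PRA transgenics. All PRA transgenics were above all wild-type animals, but the lowest of them and wild-type 2 are equal to 2 decimals. The log2 fold change was 0.19 (SE 0.12, adjusted p = 0.677), with a 95% interval from -0.08 to 0.46. In all, 4.59% of named genes had all PRA transgenics above all wild-type animals. In Cy5 alone the difference was 0.09, and the genotypes overlapped.

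**Figure D4:**
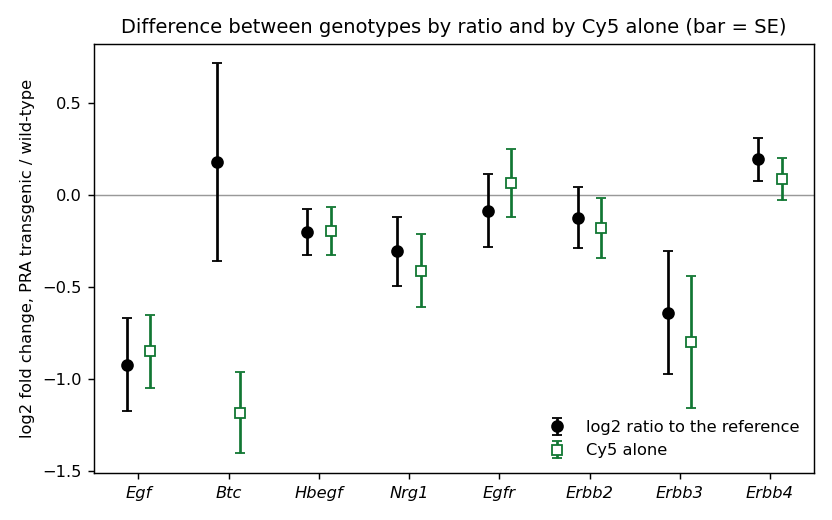
Log2 fold change, PRA transgenic over wild-type, with its SE, for the 8 tested genes by the ratio to the reference (black circles) and by Cy5 alone (open green squares). The measures lie within 0.2 of each other for 7 genes, and for Btc, whose reference signal was well above background on 1 of 7 arrays, they are 0.18 and -1.18.

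Across the 7 animals Erbb2 and Erbb3 followed each other. Pearson's r was 0.903 (exact permutation P = 0.00675) and Spearman's rho 0.786 (exact permutation P = 0.048). Among the 28 pairs of the 8 genes examined, the Benjamini-Hochberg adjusted p was 0.0944, so the pair did not pass. Without the 2 animals farthest from the median of Erbb2, r was 0.766, and within the genotypes it was 0.926 (n = 3) and 0.933 (n = 4), too few animals for a test. Nrg1 and Erbb4 ran opposite to each other, with r of -0.907 (exact permutation P = 0.00456), rho of -0.821 (exact permutation P = 0.0341) and the same adjusted p of 0.0944, so this pair did not pass either. Its r was -0.54 without the 2 animals farthest from the median of Nrg1, and -0.897 (n = 3) and -0.8 (n = 4) within the genotypes.

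The genes whose log2 ratio ran most like that of a member over the 7 animals were found among 14898 of the named genes, as a description. Clone and transcript identifiers were left out for this. For Egf they were Alpl (r = 0.993), Tm9sf1 (0.99) and Syt12 (0.983), and for Erbb3 they were Srp72 (0.99), Adck5 (0.975) and Arhgef10l (0.973). With 7 points and so many genes, correlations of this size are found for each of the 8 genes, the lowest of the 24 being 0.947 (Ptpn12 with Btc).

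The remaining ligands of the family did not pass the test either. Areg encodes amphiregulin, the Egfr ligand known for its part in duct growth under ovarian hormones, and its log2 ratio was 4.53, -0.24 and 2.07 in wild-type and 4.33, 3.04, 3.53 and -2.44 in PRA transgenics. Wild-type 2 and PRA transgenic 4 were far below the others in both genotypes, so the log2 fold change of -0.0031 came with an SE of 1.80 (adjusted p = 1.0). Nrg2, a neuregulin, gave 3.62, 1.98 and 3.86 against 1.83, 1.49, 2.64 and 2.65, a log2 fold change of -0.997 (SE 0.51, adjusted p = 0.621) with overlap. Nrg4 gave 0.33 (SE 0.20, adjusted p = 0.671), and Epgn and Nrg3 had no probe that passed the filter.

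Around the receptors, 75 genes of the pathway were listed by role, of which 73 were tested and 0 had an adjusted limma p below 0.05, the lowest being 0.421. At P below 0.05 and 1.5-fold, 1 was higher and 4 were lower, against 1.52% and 2.54% of named genes. The median log2 fold change over the 73 was -0.05. None of the 9 genes of ligand release (Adam17 and others), and none of the 19 inhibitors of the pathway, reached these limits. Of the 28 adaptors and kinases, Pik3r1, the regulatory subunit of PI 3-kinase, was higher by these limits with a log2 fold change of 0.85 (SE 0.29, adjusted p = 0.463), and Map2k2, a MAP kinase kinase, had the next value, 0.35 (adjusted p = 0.596). All PRA transgenics lay below all wild-type animals for 6 of the 73 genes and above them for 1, against 4.5% and 4.59% of named genes. Of the 6, Adam10 belongs to ligand release (log2 fold change -0.35, adjusted p = 0.495). Dusp6 (-0.50, adjusted p = 0.421) and Socs4 (-0.43, adjusted p = 0.462) are inhibitors, and the others were Nras, Stat3 and Egr1. The 1 above was Fosl1, an induced target (0.25, adjusted p = 0.596).

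The 4 lower genes were among the 14 listed as induced by EGF receptor signalling, of which 9 were negative and 5 positive, with a median of -0.33. This list was drawn up with earlier results of these data known, and the study itself had reported Egr1 and Ier3 as lower. The part of EGF receptor signalling in these values was not tested. Egr1, an immediate-early transcription factor, had log2 ratios of -2.30, -2.11 and -0.81 in wild-type and -3.77, -2.62, -2.83 and -3.80 in PRA transgenics, all below the wild-type animals, a log2 fold change of -1.51 (SE 0.46, adjusted p = 0.429). Egr2, of the same family and also known from Schwann cells, gave -1.44 (SE 0.55, adjusted p = 0.509), Fos, a subunit of AP-1, -1.37 (SE 0.50, adjusted p = 0.492), and Ier3, an immediate-early response gene, -0.61 (SE 0.20, adjusted p = 0.462), each with overlap between the genotypes. The count of 5 genes rested on single animals, since it was 1 without wild-type replicate 3, 2 without wild-type replicate 1, and 3 without PRA transgenic replicate 1 or replicate 3.

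**Figure D5:**
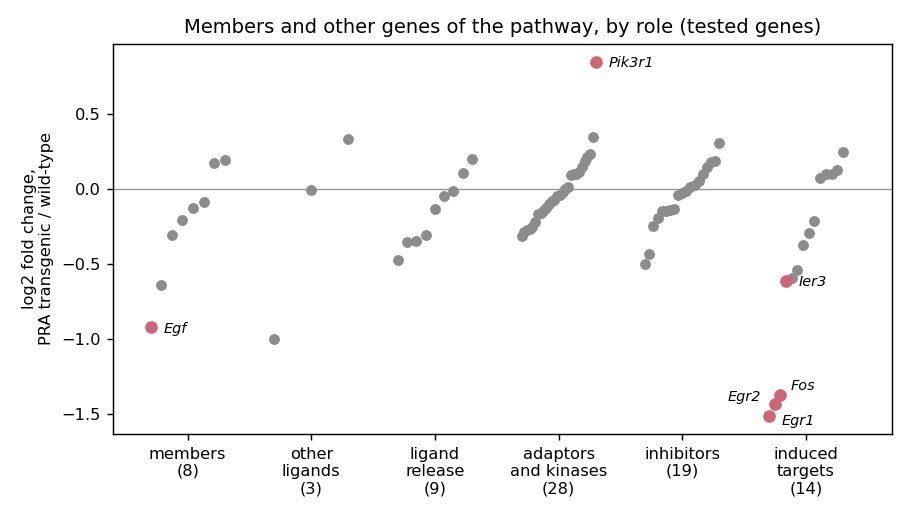
Log2 fold change, PRA transgenic over wild-type, of the 8 tested EGF family and ErbB genes (members) and of 73 other genes of the pathway by role, one point per gene, sorted within each role; the number of genes is in brackets. Red points with names are those at P below 0.05 and 1.5-fold (limma, unadjusted), 1 above 0 (Pik3r1, 0.85) and 5 below, of which Egr1 is the lowest at -1.51.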

How the data were processed

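Gene expression in 7 glands was measured on 2-colour Agilent arrays. The authors deposited one scanner file per array, with intensity values per spot made by Agilent Feature Extraction 12.0 (background-subtracted and dye-normalized processed signals) and, in the series table, log2 ratios. Spots flagged as outliers and control spots were left out, spots of a probe were averaged, and log2(Cy5/Cy3) was formed. Background flags and coordinates (mm9) are those of the files. Groups came from the sample titles. A probe was kept if its Cy5 signal was well above background in every animal of 1 genotype or both (34284 of 56605), and genotypes were compared over these with limma 3.58.1 in R 4.3.3 (lmFit, eBayes, Benjamini-Hochberg adjustment), after a check on simulated data. For Cy5 alone, the 75th percentile of each array was subtracted first. A gene was read by its kept probe brightest in Cy5. The limma p-values weigh the difference between genotypes against the spread within them, estimated with information shared over probes. Each animal was read on 1 array, so that spread includes differences between arrays, and the number of 7 animals limits the precision.

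The 10 genes, the pathway lists and the marker lists were chosen with earlier results of these data known, and the summed marker signals were formed from Cy5. All 10 genes are named, as are all other ligands, the 3 pathway genes with the highest and the 3 with the lowest log2 fold change and those at P below 0.05 and 1.5-fold. Pathway genes without overlap between the genotypes are named too. The 3 genes most like a member by Pearson's r were found for each tested member and are named for Egf and Erbb3, with the least alike of all, for Btc. The 17 probes with a RefSeq accession in the gene table given here all matched the named gene. Alternatives were normexp (offset 50) with loess, the series table, no filter, a filter on both channels, quantile and Aquantile normalization, the methods' unpaired t-test, an intensity trend, array weights, the median over probes, a replicate block and leaving out each animal. Only a few coding probes were printed as sequence. Python 3.11.15 and pandas 2.3.3 made the tables.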

Additional observations from a re-analysis of the deposited data

Results flagged for a closer look

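Among 18 groups of 4 PRA transgenic values examined, 2 held an animal far from the others, and chance flags about 1 in 20 such groups. For Tgfa, PRA transgenic replicate 1 had a log2 ratio of -1.31 against -0.69 to -0.58 in the other 3, a gap of 0.839 of the whole range, at a probe not well above background on any PRA transgenic array. For Erbb4 in Cy5 alone, PRA transgenic replicate 1 was 1.67 against 1.48 to 1.51, a gap of 0.83 of the range.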

How the results depend on the processing

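Under every alternative listed, 0 of the genes had an adjusted p below 0.05, and Egf stayed lower, from -1.19 to -0.49 in log2 fold change (adjusted p 0.322 to 0.689). At P below 0.05 and 1.5-fold, the count of 1 gene became 0 with normexp and loess and was 1 with any animal left out. In Cy5 alone and after Aquantile it was 2 (Egf and Btc), where 1170 and 1267 of all 34284 probes reached these limits. The Btc probe passed the filter only through the wild-type arrays, where its Cy5 signal was the higher. Its count is therefore not independent of the filter. The count of pathway genes, 5, became 3 with the methods' t-test and ranged from 1 to 7 with one animal left out. The count of genes without overlap, 2, became 1 with normexp and loess and ranged from 2 to 3 with one animal left out. The share of all named genes without overlap was not counted for these settings, so these counts are not read as a result. The Btc log2 fold change, 0.18, changed sign to -0.39 with normexp and loess, -1.18 in Cy5 alone, -1.26 after Aquantile and -0.086 with array weights, and ranged from -0.34 (without wild-type replicate 3) to 0.53 with one animal left out. That of Egfr, -0.09, became 0.063 in Cy5 alone and 0.072 after Aquantile and ranged from -0.24 to 0.037. In Cy5 alone Egfr ranged from -0.088 to 0.17. The causes were not tested. Erbb3, Erbb2, Nrg1, Hbegf and Erbb4 kept their direction in all 19 alternatives. The number of all probes at P below 0.05 and 1.5-fold, 1551, was 326 with normexp and loess, 3367 with no filter, 468 with both channels filtered and 995 with the methods' t-test, and that of 4 at an adjusted p below 0.05 was 15, 3 and 1 for the last 3.

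Animals share replicate numbers across the genotypes. Same-numbered animals did not deviate together (correlations of 0.1, -0.3 and 0.04), and 1 of 6 animals correlated best with its own number. No pairing by number was seen, though so few animals cannot exclude one. The paper calls the wild-type animals littermates, and which animals shared a litter is not given. With replicate number as a block, which also takes PRA transgenic replicate 4 out of the comparison since it has no wild-type partner, the 8 genes gave 0 with an adjusted p below 0.05 and 1 at the looser limits, Egf at -0.91 (adjusted p = 0.476), pathway genes stayed at 5, and the calls over all probes went from 4 to 0 and from 1551 to 2443. Leaving out PRA transgenic replicate 4 with no block already gave 12 and 2333.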
